A study of Mus musculus with 106 samples.

Results

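Inflammasome genes were examined by name: 10 genes out of 21938 protein-coding genes, read in the 70 peak lists of the study, 35 for H3K27ac and 35 for H3K4me3. They were the sensors Nlrp3, Aim2, Nlrc4 and Nlrp1b, the adaptor Pycard (ASC), the proteases Casp1 and Casp4, the pore-forming Gsdmd, the cytokine gene Il18 and the thioredoxin-binding protein gene Txnip. All 10 were found in the GRCm38 annotation. The genes were chosen by name, with earlier results of these data known.

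Inflammasomes are cytosolic complexes in which a sensor of danger or infection joins the adaptor ASC to recruit caspase-1. Active caspase-1 matures IL-1β and IL-18 and cleaves gasdermin D, whose fragments open pores in the cell membrane, while the product of mouse Casp4 binds cytosolic LPS and cleaves gasdermin D directly. Txnip is a glucose-responsive gene whose product binds thioredoxin and has been described as a partner of NLRP3. H3K27ac, acetylation of lysine 27 of histone H3, marks active promoters and enhancers, and H3K4me3, trimethylation of lysine 4, marks promoters that are active or poised.

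The libraries came from C57BL/6J mice 12 to 14 weeks of age, either control or made diabetic with streptozotocin (STZ, which destroys pancreatic beta cells; 42 to 45 mg/kg per day for 5 days, tissue taken 6 weeks after the last injection, non-fasted glucose above 13.9 mmol/L). HSC here means lineage-depleted bone marrow, from which cells carrying CD3, CD4, B220, Ter119 or Gr1 were removed, so it is an enriched rather than a purified population. BMDMs were bone marrow cells grown for 7 days in L929-conditioned medium with 5 mmol/L glucose, the same level for control and diabetic donors, and were left unstimulated or given LPS at 100 ng/mL with IFN-γ at 10 ng/mL for 16 h. Each mark had 6 libraries per group (control and diabetic, for HSC and for BMDM with and without LPS+IFN-γ) except unstimulated diabetic BMDM, which had 5. The study's methods count individual animals as n, but the labels do not tie libraries to animals, so which libraries shared a mouse is not known here.

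Each list held the peaks of 1 library called against its own input, 51162 to 176559 peaks for H3K27ac and 13730 to 277213 for H3K4me3. Because list length and read depth differ, levels were not compared directly. Peaks were ordered within a list by the deposited −log10 p, a gene took its best peak within 1 kb of any annotated start site (promoter) or its best peak in the gene body and 10 kb flanks that touched no promoter (outside promoters), and genes were then ranked from 0 to 100. This promoter or outside percentile is a position in a list and not an absolute level. Genes with no promoter peak share a tied low value, 13.2 to 21.6 for H3K27ac and 10.3 to 29.6 for H3K4me3. In populations of cells, a mark on fewer cells and less of the mark per cell cannot be told apart. In H3K27ac, promoter percentiles were higher in HSC than in unstimulated BMDM for 9 of 10 HSC and progenitor markers (medians over libraries 47.1 to 69.2 in HSC) and for 2 of 10 macrophage markers. The medians of the marker lists were 35.7 in HSC against 45.8 in unstimulated BMDM for macrophage, 51.4 against 30.8 for erythroid, 35.9 against 32.6 for lymphoid and 26.6 against 33.3 for neutrophil genes, and the list of stimulated macrophages had 43.4 in LPS+IFN-γ against 30.9 in unstimulated BMDM. By gene, 4 of 4 erythroid, 5 of 6 lymphoid and 4 of 5 neutrophil markers were higher in HSC. These counts include several lymphoid and neutrophil genes, such as Cd3e and Ly6g, that lay at the no-peak value in both states. Among neutrophil genes, Mpo had 44.9 in HSC against 33.3 in unstimulated BMDM and Elane 39.4 against 33.9. Camp went the other way, with 26.6 against 40.6. The part of the other cell types in the differences between HSC and BMDM was not tested. Among the 12 control H3K27ac BMDM libraries, 3 (LPS+IFN-γ 5, unstimulated 5 and unstimulated 6) held a larger share of the regions of the opposite label than of their own, out of 26 regions present in all diabetic LPS+IFN-γ and no diabetic unstimulated libraries and 27 of the reverse kind. These 3 libraries were kept, and limma results for H3K27ac without them are given below.

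The members ranged from promoters marked in every library to promoters marked in almost none. For H3K27ac, Gsdmd and Nlrp3 had a promoter peak in 35 of 35 libraries, and Pycard and Txnip in 34. Nlrc4 had one in 22, Il18 in 20, Nlrp1b in 19, Aim2 in 16, Casp1 in 8 and Casp4 in 1. Over all protein-coding genes the median was 34 libraries, 47.0% were marked in all 35 and 17.9% in none. For H3K4me3, Txnip had a promoter peak in 34 libraries, Gsdmd in 33 and Pycard in 32, followed by Aim2 in 22, Nlrp1b in 14, Nlrp3 in 11, Nlrc4 in 7 and Il18 in 6. Casp1 and Casp4, which lie next to each other on chromosome 9, had none in 35, as did 16.2% of all genes. Absence of a peak here means that none passed the authors' threshold in that list.

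**Figure D1:**
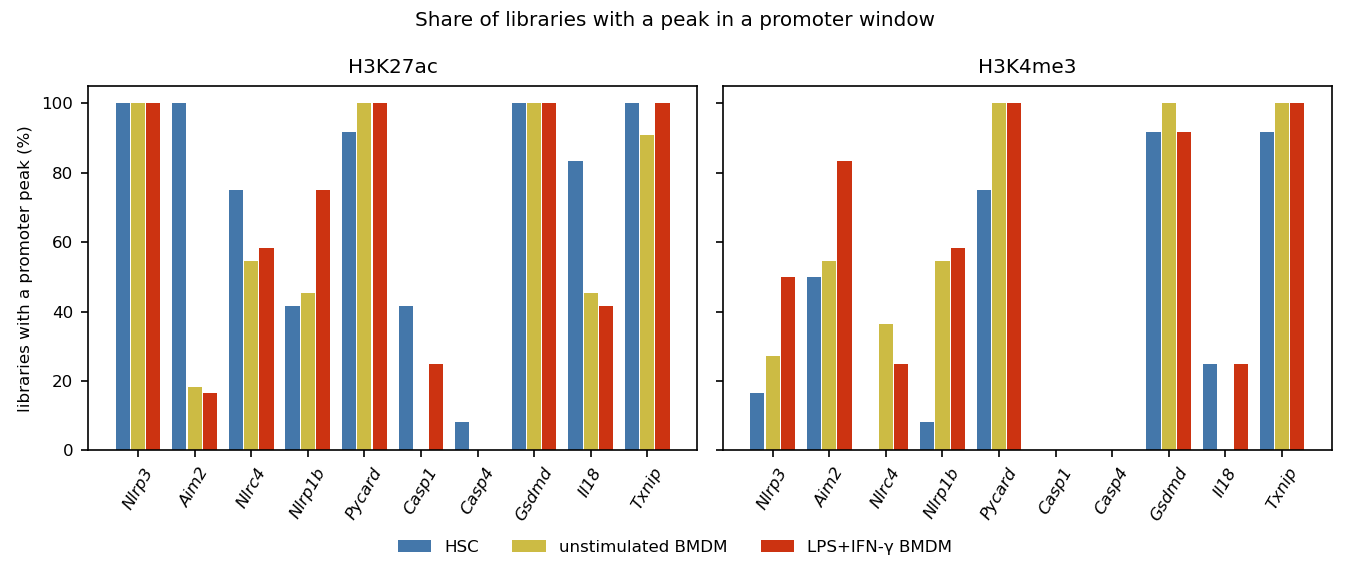
Bars give the percentage of libraries with a peak within 1 kb of any start site of each gene, by cell state (per mark, 12 libraries of HSC, 12 of LPS+IFN-γ BMDM and 11 of unstimulated BMDM, control and diabetic together). Gsdmd and Nlrp3 reach 100% for H3K27ac in every state, whereas Casp1 and Casp4 have no H3K4me3 bar.

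Nlrp3, the sensor of many forms of cell damage (ENSMUSG00000032691.14, plus strand, chr11:59541568-59566956), combined a regular H3K27ac promoter peak with a rare H3K4me3 one. In H3K27ac its promoter percentile was 44.4 at lowest, 55.3 at the median and 62.1 at highest in HSC (n = 12), 44.1, 53.2 and 86.1 in unstimulated BMDM (n = 11) and 36.8, 52.1 and 85.6 in LPS+IFN-γ BMDM (n = 12). The 3 states overlapped over most of their range. H3K4me3 peaks were present in 2 of 12 HSC, 3 of 11 unstimulated and 6 of 12 LPS+IFN-γ libraries. Of the 10320 genes with an H3K27ac promoter peak in all 35 libraries, the median gene had an H3K4me3 promoter peak in 35, and 2 genes (0.0194%) had one in 11 or fewer, Nlrp3 and Gm10277. These counts were examined after the values of Nlrp3 were seen, and Gm10277 was named for the same reason.

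CpG dinucleotides, which are dense in most H3K4me3-rich promoters, are few at Nlrp3. Its RefSeq promoter on GRCm38.p6 (250 bases before to 50 after a start site) at chr11:59542436-59542735, plus strand, held 5, and the other RefSeq start of Nlrp3 held 4. Over 20150 protein-coding promoters of the same length the median was 14. The Txnip promoter at chr3:96557707-96558006, plus strand, with 24 CpG, and the Pycard promoter at chr7:127993818-127994117, minus strand, with 3, are shown beside it because both were marked by H3K4me3 in most libraries. CG is in capitals:
Nlrp3: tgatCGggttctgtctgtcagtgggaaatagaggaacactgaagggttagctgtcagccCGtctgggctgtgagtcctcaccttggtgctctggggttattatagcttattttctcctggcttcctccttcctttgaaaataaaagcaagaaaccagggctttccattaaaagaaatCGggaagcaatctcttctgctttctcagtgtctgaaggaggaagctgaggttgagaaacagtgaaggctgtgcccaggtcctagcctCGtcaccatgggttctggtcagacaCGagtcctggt
Txnip: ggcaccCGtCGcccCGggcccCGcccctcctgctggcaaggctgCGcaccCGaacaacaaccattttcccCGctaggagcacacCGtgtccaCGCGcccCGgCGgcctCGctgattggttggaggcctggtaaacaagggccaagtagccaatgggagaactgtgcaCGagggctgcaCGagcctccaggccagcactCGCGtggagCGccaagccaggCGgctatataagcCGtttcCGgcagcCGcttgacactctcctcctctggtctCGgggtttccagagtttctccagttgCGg
Pycard: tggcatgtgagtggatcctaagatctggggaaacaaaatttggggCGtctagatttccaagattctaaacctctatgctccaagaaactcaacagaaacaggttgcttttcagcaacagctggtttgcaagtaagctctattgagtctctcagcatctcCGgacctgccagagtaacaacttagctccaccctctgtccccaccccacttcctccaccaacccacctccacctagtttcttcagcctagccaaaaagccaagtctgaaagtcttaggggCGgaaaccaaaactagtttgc

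Among 288 genes with 0 to 5 CpG and an H3K27ac promoter peak in all 35 libraries, the median number of H3K4me3 libraries was 34, and Pycard, with 3 CpG, was marked in 32. RefSeq promoter sequences were matched for 9 of the 10 members, all but Gsdmd. Apart from Txnip, the 8 other matched members held 0 to 5 CpG in every promoter listed. Across all genes in H3K27ac, the median promoter percentile was 16.1 for 4281 genes with 0 to 4 CpG, 42.9 for 3687 with 5 to 14 and 71.9 for 8571 with 15 or more, and in H3K4me3 the medians of these classes were 14.3, 40.2 and 72.4. The corresponding median of the 9 matched members was 36.8 in H3K27ac and 17.0 in H3K4me3.

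Aim2, the sensor of cytosolic DNA (ENSMUSG00000037860.15, plus strand, chr1:173350879-173466040), had the largest promoter difference of the members between HSC and unstimulated BMDM in H3K27ac. Its promoter percentile ranged from 30.0 to 59.6 in HSC, with a median of 42.4, and every HSC library held a peak. It ranged from 13.2 to 41.2 in unstimulated BMDM, with a median of 16.1, where 2 of 11 libraries held a peak, and from 13.5 to 36.1 in LPS+IFN-γ BMDM, where 2 of 12 did. HSC and unstimulated libraries overlapped only through the 2 unstimulated libraries with a peak. All H3K27ac promoter peaks of Aim2 lay at its outermost annotated start, chr1:173350879, which lies inside Cadm3. At the start used by RefSeq, 69719 bases further along the gene, 0 of 35 libraries of either mark had a peak. H3K4me3 at the outermost start was present in 6 of 12 HSC, 6 of 11 unstimulated and 10 of 12 LPS+IFN-γ libraries. The 300 bases around the outermost start (chr1:173350629-173350928, plus strand, read from the GRCm38 genome) are shown above the RefSeq promoter (chr1:173420354-173420653, plus strand) to tell the marked window from the unmarked one, with CG in capitals, 3 in the first and 5 in the second:
Aim2, outermost start: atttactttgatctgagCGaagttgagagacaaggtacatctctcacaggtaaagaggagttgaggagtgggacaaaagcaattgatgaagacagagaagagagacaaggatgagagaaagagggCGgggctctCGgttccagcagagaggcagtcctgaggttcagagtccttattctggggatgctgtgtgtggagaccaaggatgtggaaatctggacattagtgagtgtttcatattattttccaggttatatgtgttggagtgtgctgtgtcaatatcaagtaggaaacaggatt
Aim2, RefSeq start: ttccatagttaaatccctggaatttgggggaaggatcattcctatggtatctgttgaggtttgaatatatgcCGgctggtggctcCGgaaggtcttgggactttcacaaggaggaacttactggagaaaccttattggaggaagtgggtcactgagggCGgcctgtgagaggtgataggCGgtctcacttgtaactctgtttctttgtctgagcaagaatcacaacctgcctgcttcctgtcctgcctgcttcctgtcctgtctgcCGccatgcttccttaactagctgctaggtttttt

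Nlrc4, which with NAIP proteins detects flagellin and bacterial secretion systems, had H3K27ac promoter peaks in 9 of 12 HSC, 6 of 11 unstimulated and 7 of 12 LPS+IFN-γ libraries. Its median percentiles were 38.0, 27.7 and 38.1, below the middle of the ranking. The peaks were divided between its outermost start at chr17:74459142, marked in 8 HSC, 4 unstimulated and 3 LPS+IFN-γ libraries, and an internal start at chr17:74453077, marked in 5, 5 and 7. H3K4me3 was at its promoter in 0 of 12 HSC, 4 of 11 unstimulated and 3 of 12 LPS+IFN-γ libraries. Nlrp1b, the sensor of anthrax lethal factor protease, had H3K27ac promoter peaks in 5 of 12 HSC, 5 of 11 unstimulated and 9 of 12 LPS+IFN-γ libraries. The start at chr11:71228467 carried nearly all of them. Its H3K4me3 promoter peaks were in 1 of 12 HSC, 6 of 11 unstimulated and 7 of 12 LPS+IFN-γ libraries. Near-identical copies of the Nlrp1 genes lie beside one another in the mouse genome, so reads at Nlrp1b may be shared with its paralogs.

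Pycard, the adaptor, had H3K27ac promoter percentiles of 53.7 to 62.1 with a mean of 58.9 in LPS+IFN-γ BMDM (SD 2.98, n = 12). It ranged from 44.9 to 65.4 with a median of 56.8 in unstimulated BMDM, and from 21.6 to 59.3 with a median of 48.5 in HSC. Casp1, the effector protease, had H3K27ac promoter peaks in 5 of 12 HSC, 0 of 11 unstimulated and 3 of 12 LPS+IFN-γ libraries, and the only H3K27ac promoter peak of Casp4 was in 1 diabetic HSC library. Neither promoter was in the top 10000 peaks of any list.

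Gsdmd stood high in the H3K27ac promoter ranking. Its H3K27ac promoter percentile was 60.5, 69.5 and 83.6 (lowest, median and highest) in HSC, 47.3, 61.5 and 69.2 in unstimulated BMDM and 56.7, 71.7 and 87.1 in LPS+IFN-γ BMDM, and its promoter peak was among the top 10000 of 31 of 35 lists. Depending on the H3K27ac list, 32.3% to 44.8% of all protein-coding genes had a promoter peak in the top 10000. Il18, which encodes the cytokine, had an H3K27ac promoter peak in 10 of 12 HSC, 5 of 11 unstimulated and 5 of 12 LPS+IFN-γ libraries. Most were at its outermost start (chr9:50554827), whose window also covers a start of Bco2, so the peak cannot be assigned to Il18 alone. The Txnip promoter was among the top 10000 H3K27ac peaks of 11 of 12 HSC lists, 1 of 11 unstimulated and 0 of 12 LPS+IFN-γ lists. Its percentile was 51.0, 64.7 and 71.0 in HSC, 20.3, 55.9 and 66.1 in unstimulated BMDM and 49.3, 54.7 and 67.4 in LPS+IFN-γ BMDM. The lowest unstimulated value belongs to a diabetic library with no Txnip promoter peak.

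**Figure D2:**
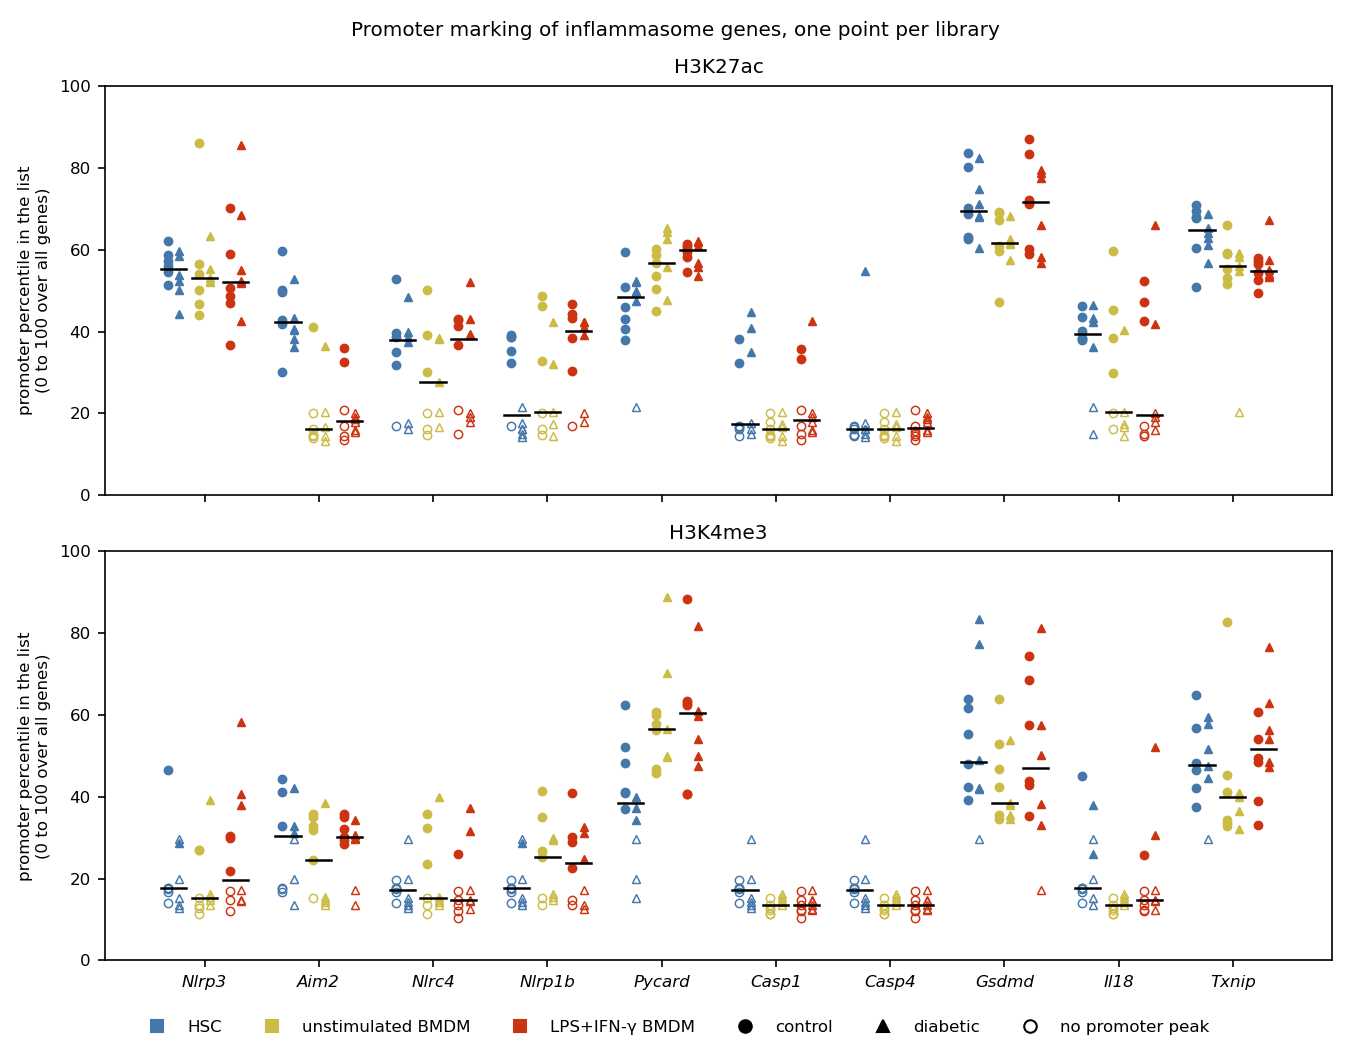
Each point is the promoter percentile (0 to 100 over 21938 genes) of a gene in 1 library, coloured by cell state, with circles for control, triangles for diabetic, open symbols for libraries with no promoter peak and a black line at the median of the state. Gsdmd, Txnip, Pycard and Nlrp3 are filled in all or nearly all H3K27ac libraries. Aim2 is filled in all 12 HSC libraries and in 4 of 23 BMDM libraries, and for H3K4me3 the points of Casp1 and Casp4 are all open.

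The comparison of HSC with unstimulated BMDM asked how the marks at these genes differ between progenitors and the macrophages grown from bone marrow. It was made with limma over all genes and all 35 libraries of a mark, as HSC minus unstimulated BMDM averaged over control and diabetic, and genes with a Benjamini-Hochberg adjusted p under 0.05 were called. For H3K27ac at promoters, 9 members were tested (Casp4 had too few peaks) and 3 were called, Aim2 and Txnip higher in HSC and Pycard lower. Of all 16981 genes tested 31.1% were called, 15.9% higher and 15.2% lower, so 3 of 9 is close to the share in all genes. The median difference of the 9 members was 8.87 percentile points against 0.30 for all genes. Aim2 was higher in HSC by 23.7 percentile points (SE 3.59, adjusted p = 2.09e-06), 25.6 in control and 21.7 in diabetic libraries. Txnip was higher by 10.3 points (SE 3.28, adjusted p = 0.0138), 7.21 in control and 13.5 in diabetic libraries. The Txnip difference was 24.1 points with peaks ranked by fold enrichment, 29.1 in the top 10000 peaks and 6.68 without diabetic unstimulated library 4, the one with no Txnip promoter peak. Without the 3 control libraries that resemble the opposite label, 3 members were called and Txnip stood at 9.11 points (adjusted p = 0.0481). Pycard differed by -10.7 points (SE 3.08, adjusted p = 0.00639), -7.82 in control and -13.7 in diabetic libraries. The adjusted p of Pycard was 0.124 when only the top 10000 peaks of each list were read. Gsdmd (8.87 points, SE 3.57, adjusted p = 0.0542) and Casp1 (9.08 points, SE 3.91, adjusted p = 0.0723) lay just beyond the threshold. Gsdmd passed it with peaks ranked by fold enrichment (15.9 points, adjusted p = 0.0133), in the top 10000 peaks (15.5 points, adjusted p = 0.0414) and with only the compared groups in the fit (adjusted p = 0.0291).

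For H3K4me3 at promoters, 8 members were tested (neither Casp1 nor Casp4 had enough peaks) and 1 was called, against 17% of 17255 genes (7.24% higher and 9.77% lower in HSC). Pycard had percentiles of 15.2, 38.5 and 62.4 in HSC and 45.8, 56.6 and 88.7 in unstimulated BMDM. It differed by -20.6 points (SE 5.24, adjusted p = 0.00586), -7.59 in control and -33.6 in diabetic libraries, although the difference between those values was not called (adjusted p = 0.999). H3K4me3 lists were shorter in HSC (median 59727 peaks) than in unstimulated BMDM (131406), and with the length of the list as a covariate the Pycard difference was -14.1 points with an adjusted p of 0.153.

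Outside promoters the called members all lay on one side in H3K27ac. All 10 were tested and 5 were called, each lower in HSC, namely the sensors Nlrp3, Nlrc4 and Nlrp1b, Pycard and Gsdmd. Over 18289 genes 32.1% were called, 15.5% higher and 16.6% lower in HSC. The median difference of the 10 members was -12.0 percentile points against -0.64 for all genes. Nlrc4 ranged from 29.4 to 83.6 in HSC, with a median of 53.5, and from 59.3 to 92.0 in unstimulated BMDM, with a median of 83.7. The Nlrc4 difference was -24.5 points (SE 4.85, adjusted p = 1.53e-04), -28.5 in control and -20.4 in diabetic libraries. Nlrp3 ranged from 24.8 to 89.7 in HSC, median 62.3, and from 59.0 to 93.8 in unstimulated BMDM, median 84.6. Its difference was -20.9 points (SE 5.67, adjusted p = 0.00424), -12.6 in control and -29.1 in diabetic libraries. For each of these genes the HSC and macrophage ranges overlapped, and the separation lay in the medians. Pycard (-26.6 points, SE 7.42, adjusted p = 0.00531), Nlrp1b (-20.5, SE 6.56, adjusted p = 0.0149) and Gsdmd (-12.8, SE 3.94, adjusted p = 0.0112) were also lower. Pycard had a peak outside promoters in 1 of 12 HSC libraries and in 8 of 11 unstimulated BMDM libraries. Gsdmd lost its call when peaks were ranked by fold enrichment instead of −log10 p (-7.29 points, adjusted p = 0.278). Without the 3 control libraries that resemble the opposite label, 5 members were called. Gsdmd and Nlrp3 thus had promoter differences of 8.87 and -0.80 points beside outside differences of -12.8 and -20.9 points.

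**Figure D3:**
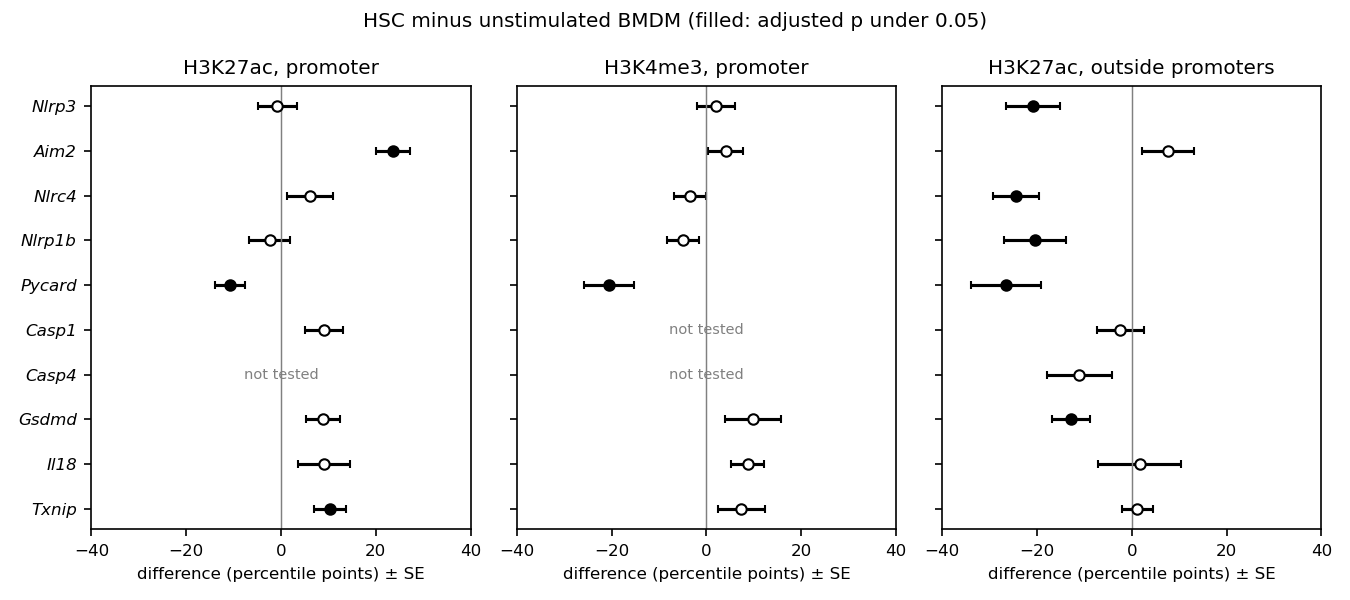
Points give HSC minus unstimulated BMDM in percentile points with the standard error as bars, for H3K27ac and H3K4me3 at promoters and H3K27ac outside promoters, and filled points have an adjusted p under 0.05 in limma. Outside promoters the 5 filled points (Nlrp3, Nlrc4, Nlrp1b, Pycard and Gsdmd) all lie on the side lower in HSC, whereas at promoters Aim2 and Txnip lie on the higher side.

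The positions behind these differences were read from the 50000 highest-ranked H3K27ac peaks of each list, which gives every library the same list length. Peaks outside promoters were merged, and 31 merged regions present in at least 5 libraries were found near 8 members. They are described without a test because they were found in the same lists. Of the 31, 25 were held by a larger share of the 23 BMDM libraries than of the 12 HSC libraries, and 4 were in no HSC list. Near all protein-coding genes the same procedure gave 44678 regions, of which 58.5% were held by a larger share of BMDM libraries, against 80.6% of the 31, and 18.6% were in no HSC list, against 12.9%. Neighbouring regions of 1 gene are not independent, and this difference was not tested. Nlrp3 had 9 of the regions, more than any other member. The region at chr11:59547791-59549671, with its median summit 6.64 kb inside the gene, was in 21 of 23 BMDM and 0 of 12 HSC libraries (10 of 11 unstimulated and 11 of 12 LPS+IFN-γ). The region at chr11:59553804-59556333, 14.2 kb from the start, was in 21 of 23 BMDM and 2 of 12 HSC libraries, including all 12 with LPS+IFN-γ. A region at chr11:59530431-59532155, with its median summit at -10.4 kb, was in 15 of 23 BMDM and 1 of 12 HSC libraries.

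The median summits of the first 2 regions lie in coding exons of Nlrp3, exons 5 and 7 of the transcript ENSMUST00000079476.9 (chr11:59547990-59549745, 1756 bases, and chr11:59555748-59555918, 171 bases). The 300 bases centred on each median summit (chr11:59548060-59548359 and chr11:59555619-59555918, plus strand, GRCm38) are shown because they are where BMDM and HSC differ most at this gene. They held 10 and 8 CpG, in capitals, against a median of 5 in 2000 windows of the same length on H3K27ac summits outside promoters in 1 unstimulated control BMDM library:
Nlrp3, 6.64 kb inside: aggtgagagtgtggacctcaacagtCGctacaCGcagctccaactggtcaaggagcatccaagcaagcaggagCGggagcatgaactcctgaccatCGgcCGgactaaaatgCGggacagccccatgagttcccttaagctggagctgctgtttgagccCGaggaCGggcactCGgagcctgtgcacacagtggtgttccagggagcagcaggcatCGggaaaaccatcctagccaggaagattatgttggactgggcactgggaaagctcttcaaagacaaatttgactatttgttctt
Nlrp3, 14.2 kb inside: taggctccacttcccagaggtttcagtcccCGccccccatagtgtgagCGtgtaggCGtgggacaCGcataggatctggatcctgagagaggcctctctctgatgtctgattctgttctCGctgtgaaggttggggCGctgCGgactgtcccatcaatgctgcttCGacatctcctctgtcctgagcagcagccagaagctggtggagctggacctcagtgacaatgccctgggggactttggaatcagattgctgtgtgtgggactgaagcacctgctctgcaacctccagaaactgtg

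**Figure D4:**
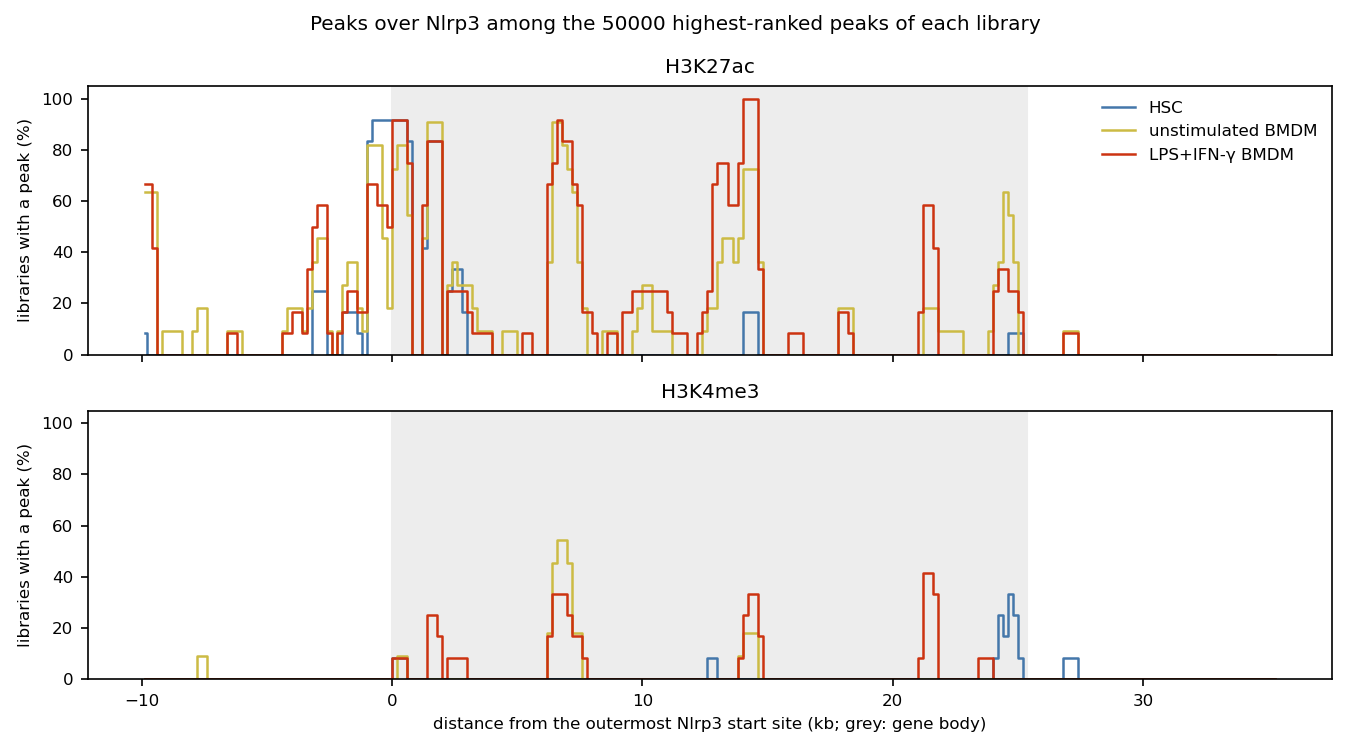
Steps of 200 bases give the percentage of libraries with a peak over Nlrp3 and 10 kb on either side, by distance in kb from the outermost start site, for H3K27ac above and H3K4me3 below, among the 50000 highest-ranked peaks of each list (all peaks where a list is shorter). At the start the 3 states are alike in H3K27ac, whereas the summits 6.64 and 14.2 kb inside the gene are present in most BMDM libraries and in 0 and 2 of 12 HSC libraries.

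Regions near Nlrc4 and Nlrp1b were also held mostly by BMDM libraries. Nlrc4 had one in an intron (chr17:74430526-74432662) in 18 of 23 BMDM and 1 of 12 HSC libraries, and a second intronic one (chr17:74454983-74456445) in 17 of 23 and 3 of 12. Nlrp1b had a region upstream of its start (chr11:71232423-71234464) in 15 of 23 BMDM and 1 of 12 HSC libraries. Gsdmd had 1 region, at -4.51 kb from the start (chr15:75856141-75859100), in 22 of 23 BMDM and 10 of 12 HSC libraries. Txnip also held regions of the reverse pattern. Its upstream regions at chr3:96556310-96556892 and, at -2.76 kb, chr3:96554853-96556063 were in 11 and 8 of 12 HSC libraries and each in 1 of 23 BMDM libraries. A further Txnip region at -4.26 kb (chr3:96553381-96554411) was in 12 of 12 HSC and 21 of 23 BMDM libraries. Casp1 and Casp4 had no region that met the minimum of 5 libraries.

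The other pathway genes were read from a list of 36 genes of inflammasome assembly, IL-1 and IL-18 signalling, guanylate-binding proteins, further caspases and thioredoxin. For H3K27ac at promoters, 6 of 35 tested were higher and 4 lower in HSC, beside 15.9% higher and 15.2% lower of all genes. The smallest p-values belonged to Naip5, a flagellin receptor that works with Nlrc4 (17.7 points, adjusted p = 8.68e-04), Gbp2, an interferon-induced guanylate-binding protein (18.8, adjusted p = 0.00101), Il1r1, the IL-1 receptor (11.9, adjusted p = 0.00183), and Gbp5 (15.1, adjusted p = 0.00221), all higher in HSC. Outside promoters 5 of 35 were higher and 9 lower in HSC, beside 15.5% higher and 16.6% lower of all genes. Here Ninj1, which mediates membrane rupture (-9.04 points, adjusted p = 7.35e-07), was lower, and Il18r1, a subunit of the IL-18 receptor (38.1, adjusted p = 6.85e-05), and Il1a, an IL-1 cytokine (35.5, adjusted p = 2.08e-04), were higher. Naip5 was thus higher in HSC at its promoter and lower outside it (-23.6 points, adjusted p = 0.00212). For H3K4me3, 1 of 26 was higher (Gbp2) and 4 were lower in HSC, among them Nlrp6, an NLR sensor (-17.3 points, adjusted p = 0.0117), and P2rx7, the ATP-gated channel upstream of Nlrp3 (-13.4 points, adjusted p = 0.0325). Of all genes 7.24% were higher and 9.77% lower in HSC for H3K4me3.

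Stimulation with LPS+IFN-γ, which in macrophages primes inflammasome components, was compared with no stimulation over control and diabetic BMDMs together. No member was called for either mark or region by limma. Of all genes 2.39% were called for H3K27ac at promoters, 1.17% outside promoters and 0% for H3K4me3, where 967 of 17255 genes had an unadjusted p under 0.05. In control libraries alone, limma called 0 of 16981 genes for H3K27ac at promoters and 0 of 18289 outside promoters. In diabetic libraries alone it called 422 and 217, with 0 members among them. The 3 libraries that resemble the opposite label are all control libraries. The median difference of the members was 2.43 percentile points for H3K27ac at promoters (-0.20 for all genes), 2.77 outside promoters (-0.38) and 5.30 for H3K4me3 (-0.15). For Nlrp3 the H3K27ac promoter difference was -0.08 points (SE 4.15, adjusted p = 0.993). Gsdmd had the largest promoter difference in H3K27ac, 8.52 points (SE 3.57, unadjusted p = 0.0219, adjusted p = 0.198), and one of 8.86 points outside promoters (SE 3.94, adjusted p = 0.323). Without the 3 control libraries that resemble the opposite label, 1139 of 16908 genes were called at promoters in place of 406, and Gsdmd stood at 10.2 points with an adjusted p of 0.102. Txnip stood at -7.52 points outside promoters (SE 3.24, adjusted p = 0.302) and at 11.01 points for H3K4me3 (SE 4.97, adjusted p = 0.851). In the pathway list, Il18bp, the IL-18 binding protein that neutralises the cytokine, rose at its promoter (18.1 points, adjusted p = 0.0218), and Mlxip, a glucose-sensing transcription factor of the family that regulates Txnip, rose outside promoters (27.9 points, adjusted p = 0.00607). Whether the response differed between diabetic and control BMDMs was tested as the difference of the differences, and 0 members and 0% of genes were called for H3K27ac at promoters, for H3K27ac outside promoters and for H3K4me3.

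The comparison of diabetic with control libraries asked whether STZ diabetes had left a mark on these genes in HSC, and whether it was present in BMDMs grown at the same glucose level. In each of the 3 cell states, 0 members and 0% of all genes were called by limma for H3K27ac at promoters, for H3K27ac outside promoters and for H3K4me3. Without the 3 control libraries resembling the opposite label, limma called 0 members and 0 genes for H3K27ac in both BMDM states and both regions. At an unadjusted p under 0.05, limma gave 339, 989 and 807 of 16981 genes for H3K27ac at promoters in HSC, in BMDM without stimulation and in BMDM with it, 938, 1066 and 737 of 18289 outside promoters, and 796, 691 and 888 of 17255 for H3K4me3. Member differences in H3K27ac at promoters ran from -16.7 to 5.74 points in HSC, from -13.1 to 5.06 in unstimulated BMDM and from -4.63 to 7.32 in LPS+IFN-γ BMDM, with standard errors of 4.24 to 7.98 points. At Nlrp3 the promoter difference was -3.48 points (SE 5.73) in HSC, -0.99 (SE 6.01) in unstimulated and 7.32 (SE 5.73) in LPS+IFN-γ BMDM, and at Txnip -1.45 (SE 4.53), -7.71 (SE 4.75) and 2.14 (SE 4.53). For the difference between cell states set against disease, 0 members were called, beside 0% of genes called for H3K27ac in either region and 0.0116% for H3K4me3.

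In limma, unadjusted p-values under 0.05 arose for 3 members, all in HSC and all lower in diabetic libraries. Nlrp1b had an H3K27ac promoter peak in 5 of 6 control and 0 of 6 diabetic HSC libraries, with percentiles of 17.0, 37.0 and 39.2 (lowest, median and highest) against 14.3, 16.2 and 21.6. The difference was -16.7 points (SE 5.92, limma unadjusted p = 0.00719, adjusted p = 1.00, exact permutation p = 0.00649). The 5 control peaks held ranks of 39295 to 85691, and lists had 100045 to 139452 peaks in control and 51162 to 130995 in diabetic HSC. With list length as a covariate the difference was -12.1 points. Pycard had H3K4me3 percentiles of 37.1, 44.7 and 62.4 in control and 15.2, 32.0 and 39.8 in diabetic HSC, a difference of -17.6 points (SE 7.24, unadjusted p = 0.0179, adjusted p = 1.00, exact permutation p = 0.00649), which was -19.0 with the covariate and -5.20 in the top 10000 peaks. Outside promoters, Nlrp3 in H3K27ac had 45.9, 68.2 and 86.5 in control and 24.8, 48.3 and 89.7 in diabetic HSC, a difference of -17.0 points (SE 7.82, unadjusted p = 0.0358, adjusted p = 0.937, exact permutation p = 0.173). Control and diabetic libraries overlapped for all 3, and none passed the adjusted threshold. The Nlrp1b promoter differences in H3K27ac were -4.51 (SE 6.21) points in unstimulated and -3.01 (SE 5.92) points in LPS+IFN-γ BMDM. The exact permutation test also gave unadjusted p-values under 0.05 to members higher in diabetic libraries. Casp1 outside promoters in H3K27ac was higher in HSC (7.63 points, exact p = 0.0238, adjusted p = 0.673). Il18 in H3K4me3 was higher in unstimulated BMDM (2.05 points, exact p = 0.0325, adjusted p = 0.998), where no library held an Il18 promoter peak.

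**Figure D5:**
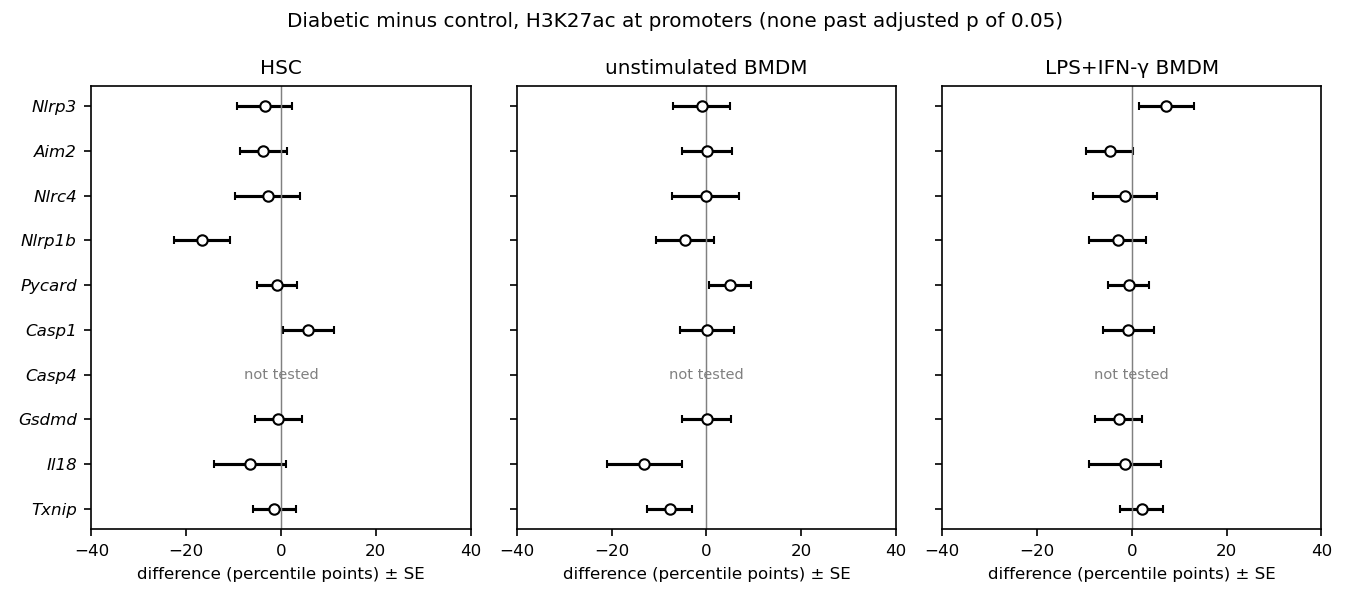
Points give diabetic minus control H3K27ac at promoters in percentile points, with the standard error as bars, with 1 panel for each of the 3 cell states. No point is filled, since no adjusted p was under 0.05, and Nlrp1b in HSC lies farthest from 0 at -16.7 points.

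Across the 35 H3K27ac libraries, the genes on other chromosomes whose promoter percentiles were most like those of Nlrp3 by rank were G6pdx (Spearman's rho 0.81), Sp140 (0.75) and Pilrb2 (0.74). The points share list length and library quality, and these values are a description of the lists. The 2 highest Nlrp3 promoter percentiles, 86.1 in an unstimulated control library and 85.6 in a diabetic LPS+IFN-γ library, lay far above the medians of their states.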

How the data were processed

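The authors immunoprecipitated H3K27ac and H3K4me3 and sequenced 50 bp single reads. The submitters' processing notes name Trim Galore 0.3.3, cutadapt 1.8, FastQC 0.11.3, Bowtie2 2.2.6, Picard 2.19.2 and 2.18.14, bedtools 2.19.1 and MACS2 2.2.7.1 on GRCm38. Of 106 samples, 70 had a peak list and 36 were inputs with no list analysed here. Each deposited list gives, per peak and per library, a score, a fold enrichment (ratio) over input, and −log10 p and −log10 q. The number of mapped reads is not given in the lists, so depth is unknown and no counting interval is printed.

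Peaks with several summits were collapsed, ordered by −log10 p, and assigned to 21938 protein-coding genes of GENCODE M21. Percentiles were tested with limma 3.58.1 (R 4.3.3, with a mean-variance trend) with all 35 libraries of a mark and 1 mean per group, for genes with a peak in at least 5 libraries, and adjusted by Benjamini-Hochberg over all genes. On simulated data with 200 changed genes in the H3K27ac stimulation comparison, 186 were recovered with 9 false calls. The changed genes were of middle to upper rank, libraries were independent and no-peak values were not tied. The simulation therefore does not measure what the disease comparisons could detect. Groups came from the labels. The members, the pathway and marker lists and the rule that at most the 4 smallest p-values of called pathway genes are named (all members are named; 1 pathway gene is not reported here) were chosen with earlier results of these data known. Deviations of same-numbered libraries had r from -0.29 to 0.36 over 7 pairs of groups per mark, and no pair of groups had every r over 0.1, so numbers were not taken as pairs. The nearest were unstimulated and LPS+IFN-γ diabetic BMDM, with 4 of 5 over 0.1 for H3K27ac and 3 of 5 for H3K4me3. No libraries were duplicates: within groups at most 0.00617% of intervals were identical.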

Additional observations from a re-analysis of the deposited data

Results flagged for a closer look

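Promoter percentiles of single libraries were compared with the rest of their group for members with a peak in every library of the group, in 40 groups. In 5 groups 1 library lay far above the others, where chance gives about 1 in 20 groups. For Nlrp3 in H3K27ac, library 1 of control unstimulated BMDM had a percentile of 86.1, against 44.1 to 56.5 in the other 5, and library 1 of diabetic unstimulated BMDM had 63.4, against 52.1 to 55.3 in the other 4. For Txnip, library 3 of diabetic LPS+IFN-γ BMDM had 67.4 in H3K27ac, against 53.4 to 57.5 in the other 5, and library 1 of control unstimulated BMDM had 82.7 in H3K4me3, against 32.9 to 45.3. For Gsdmd in H3K4me3, library 4 of diabetic unstimulated BMDM had 53.8, against 34.5 to 38.4 in the other 4. No member passed the test of whether the stimulation or cell state difference itself differed between diabetic and control libraries.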

How the results depend on the processing

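For the 18 results with 0 members called, the count was 0 in all 519 settings run, although the exact permutation test, whose smallest p is 0.0021645, could hardly pass an adjustment over all genes and says nothing about stability. Of the 3 results with calls, H3K27ac at promoters between HSC and unstimulated BMDM (3 members) gave 3 to 5 with 1 library left out, 5 without diabetic HSC library 1, when Casp1 and Gsdmd also passed. It gave 2 in the top 10000 peaks, 4 ranked by fold and 4 with only the compared groups in the fit. H3K4me3 (1 member) gave 0 in the top 10000 peaks, 0 with list length as a covariate, 4 with no filter on genes and 2 with only the compared groups in the fit, and 1 to 1 with a library left out. With no filter, Casp1 and Casp4 were also tested, though neither had an H3K4me3 promoter peak in any library. Such genes enter only through the tied low value, which differs between lists. Of the 7727 genes called in that setting, 5560 were higher in HSC. H3K27ac outside promoters (5 members) gave 5 to 5 with a library left out, 4 ranked by fold and 4 with flanks of 5 kb, where Pycard had too few peaks to be tested. The top 10000 peaks left no member to test outside promoters. Of 20 member differences in 640 settings, 0 reversed. 4 lost their call, Gsdmd outside promoters ranked by fold and Pycard in the top 10000 peaks for both marks and with list length as a covariate, and 15 gained one (Casp1, Gsdmd, Il18). The cause was not tested. Counts over all genes moved by more than 1.5 times as follows. For stimulation in H3K27ac at promoters, 406 became 229 (top 10000 peaks), 104 (ranked by fold), 171 (only the compared groups) and 1139 (without the 3 doubted libraries), and 236 to 664 with 1 library left out. Outside promoters, 214 became 333 (normal scores), 84 (top 10000 peaks), 123 (ranked by fold), 134 (only the compared groups), 142 (replicate block) and 535 (without the doubted libraries), and 106 to 365 with 1 left out. For cell state, 2934 in H3K4me3 became 890 (fold), 7727 (no filter), 521 (list length) and 1764 (top 10000 peaks), and 1928 without the 3 libraries of the same labels, while 5862 outside promoters became 794 and 5284 at promoters became 3287 in the top 10000 peaks. Library numbers were not taken as pairs, since not every same-numbered pair correlated over 0.1. Such correlations cannot show whether libraries shared a mouse. With the replicate block, 3, 1 and 5 members were called between HSC and BMDM and 0 elsewhere, and stimulation called 276 genes at promoters and 142 outside. The scaling of 4 H3K4me3 BMDM libraries was unclear. Without them, 2502 genes and 1 member were called for cell state in H3K4me3. The lists do not give read depth, so a missing peak cannot be separated from a shallow library.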
